A study of Mus musculus with 50 samples.

Results

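Receptors for neurotrophic factors were followed in mouse spinal motor neurons from specification to old age and during maturation in culture. The set held 9 genes, *Ret*, *Gfra1*, *Gfra2*, *Ntrk2*, *Ntrk3*, *Ngfr*, *Cntfr*, *Lifr* and *Met*, taken by symbol from the 55385 genes in the RNA-seq files. The 9 genes passed the filter on low counts in each of the 3 fits described here. The data comprised 28 RNA-seq libraries with 2 or 3 replicates per group and 22 ATAC-seq libraries with 2 replicates per group.

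At E10.5, whole motor neurons were sorted for bright GFP from C57BL/6 mice carrying the HB9-GFP transgene, in which a motor neuron promoter drives the reporter. For E13.5 embryos and for postnatal mice at P4, P13, P21, P56 and 2 years of age, nuclei came from C57BL/6 Chat-Cre;SUN1-GFP-3xMYC mice, in which Cre is expressed from the choline acetyltransferase locus and tags the nuclear envelope of every cholinergic population, not motor neurons alone. Spinal cords of several animals were combined for a replicate. RNA was taken from nuclei caught with beads (the INTACT protocol) and ATAC-seq used sorted nuclei. The nuclear RNA came from brachial and lumbar cord only. ATAC-seq, and both assays at E10.5, also included thoracic cord. No treatment was given in vivo. In vitro, 1 embryonic stem cell line of the same Chat-Cre;SUN1-GFP-3xMYC genotype was differentiated in embryoid bodies, from which nuclei were purified (DIV0). Cells were then grown on mouse cortical astrocytes for 7 or 28 days (DIV7, DIV28), without or with 1 µM tetrodotoxin (TTX), a blocker of voltage-gated sodium channels, present from DIV0 to DIV28. The co-culture medium contained GDNF, BDNF, CNTF and IGF, so that ligands of *Ret* and *Gfra1*, of *Ntrk2* and of *Cntfr* were supplied at DIV7 and DIV28 but reached no cell in vivo by this route.

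The libraries held between 2704682 and 21823500 expected counts. The 7 motor neuron markers tested (*Chat*, *Slc5a7*, *Slc18a3*, *Isl1*, *Mnx1*, *Prph* and *Nefh*) were above 0 in every group, and their summed level ran from 1750 normalised counts at E13.5 to 19856 at DIV28. The library titled DIV0 replicate 3 was treated as DIV28 replicate 3: over 10953 genes its correlation was 0.765 with both DIV0 libraries and 0.932 and 0.936 with the other DIV28 libraries. The E13.5 libraries stood apart in carrying endothelial markers at 13256 to 24988 summed normalised counts and erythroid markers at 11132 to 13524, against 5 to 19 and 1 to 12 at E10.5. E10.5 was the only age measured in whole cells, and the only one with thoracic cord in the RNA. Age, preparation and cord level thus cannot be told apart in any RNA comparison of tissue with E10.5. In bulk samples, fewer cells of a type and less RNA per cell cannot be told apart either.

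Target-derived trophic factors keep motor neurons alive while they innervate muscle, and later shape axon growth and synapses. GDNF family ligands bind a lipid-anchored coreceptor (GFRα1 for GDNF, GFRα2 for neurturin), which then engages the tyrosine kinase RET. BDNF signals through the tyrosine kinase TrkB (*Ntrk2*) and NT-3 through TrkC (*Ntrk3*), while p75NTR (*Ngfr*), a member of the TNF receptor superfamily, binds all neurotrophins and their precursors and can promote death or survival. CNTF binds a lipid-anchored subunit (*Cntfr*) that joins the LIF receptor (*Lifr*) and gp130 (*Il6st*), and MET is the tyrosine kinase that responds to hepatocyte growth factor.

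The regulatory sequences behind the main patterns are shown first. They are the *Ngfr* promoter, which kept an ATAC-seq peak in every library although the RNA all but vanished, the *Ntrk2* promoter, whose gene rose the most in vivo, and 4 open regions inside the genes, each with peaks at some stages and none at others. These regions were chosen after their values were seen. Sequences are from RefSeq (GRCm38.p6, the mm10 assembly). The promoter windows end at the base before the first annotated transcription start and run in the direction of the gene. The other windows span 300 bases around the summit of the strongest peak, on the plus strand. Capitals mark matches on either strand to the AP-1 motif TGANTCA, the cyclic AMP response element TGACGTCA, the homeodomain motif TAATTA, the GC box GGGCGG or the NFI motif, the only motifs searched.
Ngfr promoter: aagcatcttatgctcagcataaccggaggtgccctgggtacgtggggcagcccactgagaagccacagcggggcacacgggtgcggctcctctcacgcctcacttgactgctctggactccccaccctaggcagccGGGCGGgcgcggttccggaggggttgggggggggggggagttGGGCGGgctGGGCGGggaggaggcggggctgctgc
Ntrk2 promoter: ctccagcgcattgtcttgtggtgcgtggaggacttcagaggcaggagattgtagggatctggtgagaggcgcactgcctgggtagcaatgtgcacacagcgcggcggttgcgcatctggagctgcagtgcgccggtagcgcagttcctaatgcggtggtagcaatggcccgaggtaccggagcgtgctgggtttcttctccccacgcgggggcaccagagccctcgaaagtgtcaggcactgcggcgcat
Ngfr internal region: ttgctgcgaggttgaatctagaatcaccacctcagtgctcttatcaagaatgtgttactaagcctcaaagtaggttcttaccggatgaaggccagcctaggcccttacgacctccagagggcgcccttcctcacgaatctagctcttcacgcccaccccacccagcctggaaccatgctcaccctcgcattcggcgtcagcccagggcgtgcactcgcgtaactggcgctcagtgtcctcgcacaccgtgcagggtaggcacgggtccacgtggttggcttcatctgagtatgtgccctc
Ntrk3 internal start site: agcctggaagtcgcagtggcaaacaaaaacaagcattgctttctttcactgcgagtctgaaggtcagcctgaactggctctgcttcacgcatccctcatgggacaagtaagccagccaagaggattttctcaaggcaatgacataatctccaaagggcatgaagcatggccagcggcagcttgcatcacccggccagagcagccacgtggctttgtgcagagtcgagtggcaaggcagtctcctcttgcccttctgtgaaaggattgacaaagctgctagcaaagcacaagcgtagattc
Ntrk2 intronic region: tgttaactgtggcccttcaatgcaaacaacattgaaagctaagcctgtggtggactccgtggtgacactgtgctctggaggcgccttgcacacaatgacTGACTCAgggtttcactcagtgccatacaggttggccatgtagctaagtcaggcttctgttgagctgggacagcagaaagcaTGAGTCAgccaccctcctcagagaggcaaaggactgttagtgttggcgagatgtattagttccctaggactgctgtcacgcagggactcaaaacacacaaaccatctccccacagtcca
Lifr intronic region: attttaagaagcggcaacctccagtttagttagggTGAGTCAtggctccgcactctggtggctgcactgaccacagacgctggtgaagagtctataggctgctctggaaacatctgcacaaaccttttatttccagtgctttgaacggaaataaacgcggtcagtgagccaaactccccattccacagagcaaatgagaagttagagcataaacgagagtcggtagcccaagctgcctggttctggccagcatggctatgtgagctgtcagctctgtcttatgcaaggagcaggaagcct
The *Ngfr* promoter window (chr11:95587736-95587948, minus strand) is 70.9% G and C and holds 3 GC boxes, a motif found in 35.7% of the 32851 RefSeq promoters of 300 bases. The *Ntrk2* promoter window (chr13:58806319-58806568, plus strand) is 62.8% G and C and held no match to the motifs searched. The *Ngfr* internal region (chr11:95577792-95578091) has its summit in an intron, and 118 of its bases are coding exon. The *Ntrk3* region (chr7:78658127-78658426) has its summit 168 bp from the start of the non-coding transcript Ntrk3-217 and overlaps no exon. Neither of these held a match. The *Ntrk2* intronic region (chr13:59052212-59052511) lies 180627 bp from the nearest *Ntrk2* start site and holds 2 AP-1 matches. The *Lifr* intronic region (chr15:7092364-7092663) lies 1900 bp from the start of Lifr-208 and holds 1. AP-1 matches stood in 7.81% of RefSeq promoters and in 7.4%, 16.0% and 50.1% of 300-base peak windows at E10.5, P21 and DIV28 (replicate 1 of each), so a match is common in DIV28 peaks. RefSeq promoter windows matched 6 of the 9 receptors; *Ret*, *Gfra2* and *Ntrk3* had none.

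In vivo most calls fell between E10.5 and P4, and after P4 *Ngfr* was the only receptor called between neighbouring ages. *Ngfr* fell from the most abundant receptor transcript to almost nothing, *Ntrk2* and *Ntrk3* rose to become the most abundant, *Cntfr* fell, and the GDNF receptors passed through a maximum at P4. Levels are given as normalised counts (expected counts divided by a library size factor) for each replicate in turn.

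**Figure D1:**
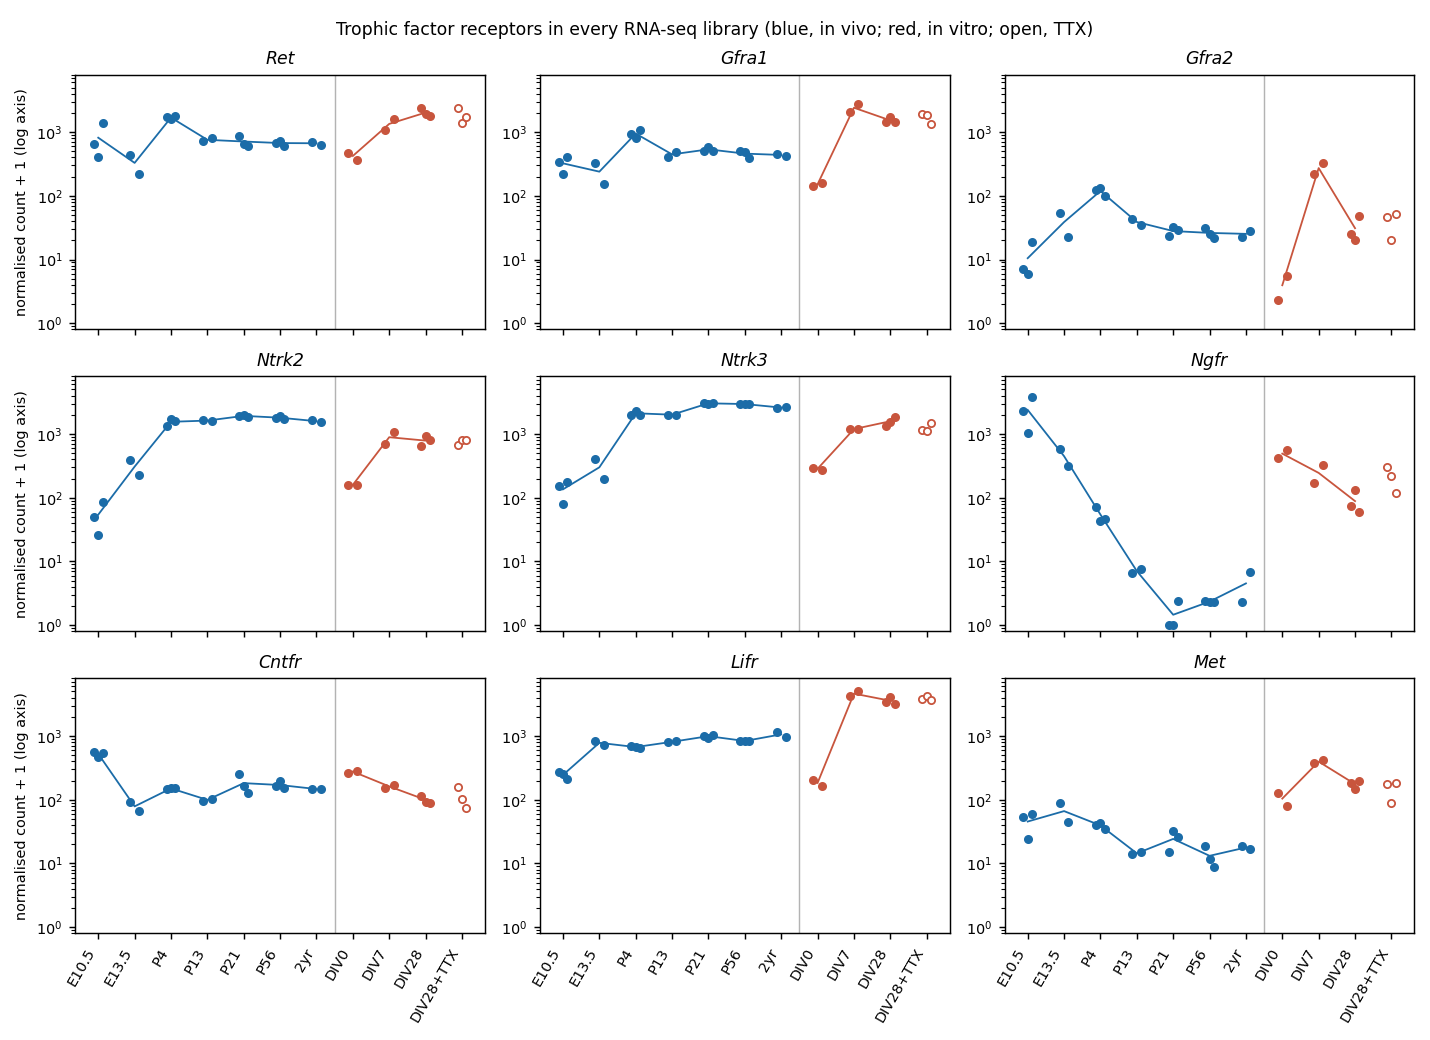
Normalised counts plus 1 on a log axis for the 9 receptors in each RNA-seq library, by group; points are libraries, lines join group means, blue is in vivo, red is in vitro and open points are TTX. *Ngfr* falls from between 1056 and 3790 at E10.5 to between 0 and 1.38 at P21, while *Ntrk2* and *Ntrk3* rise from E10.5 to P4.

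Among the neurotrophin receptors, *Ngfr* (chr11:95568818-95587735, mm10, minus strand) stood at 2321, 1056 and 3790.4 normalised counts at E10.5. It stood at 577 and 319.6 at E13.5, 71.8, 42.6 and 46.2 at P4 and 5.66 and 6.5 at P13. The 3 P21 libraries together held 1 count of *Ngfr*, the 3 P56 libraries 3 counts and the 2-year libraries 12. No value at one age overlapped those of the next from E10.5 to P21. The drop was 2.59 ± 0.41 (SE, adjusted p = 2.16e-05) on the log2 scale from E10.5 to E13.5, 2.90 ± 0.41 (SE, adjusted p = 8.24e-06) to P4 and 3.05 ± 0.64 (SE, adjusted p = 0.00136) to P13. Without either P13 library the last of these missed the threshold, at -2.96 without replicate 1 and -3.11 without replicate 2. The level per unit depth was 5040 times higher at E10.5 than at P21 (95% interval from counting error 904 to 199000, 9535 against 1 count), 863 times higher at E13.5 (155 to 34100) and 115 times higher at P4 (20.4 to 4590). Between P56 and 2 years the ratio was 3.35, with an interval of 0.904 to 18.5 that includes 1. Schwann cell markers summed to 245 to 378 normalised counts at E10.5, 152 to 238 at E13.5 and 49 to 87 at P4. They summed to 143 to 173 at P13 and 51 to 60 at P21, and their part in the *Ngfr* levels was not tested.

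*Ntrk2* (TrkB, chr13:58806569-59133970, plus strand) stood at 48.9, 24.9 and 86.2 normalised counts at E10.5, 386 and 228 at E13.5 and 1353, 1724 and 1589 at P4. At P21 it was 1901, 2015 and 1865, at P56 1776, 1899 and 1733 and at 2 years 1636 and 1542. From P4 on the values lay between 1353 and 2015. It amounted to 2.36 ± 0.31 (SE, adjusted p = 2.89e-06) on the log2 scale from E10.5 to E13.5 and 2.5 ± 0.32 (SE, adjusted p = 2.28e-06) from E13.5 to P4. From E10.5 to P21 the rise was 36.1-fold, the highest of the 9 receptors.

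*Ntrk3* (TrkC, chr7:78175959-78738012, minus strand) also rose. Its normalised counts were 153, 78.1 and 173 at E10.5, 399.9 and 199 at E13.5, 1999, 2333 and 2022 at P4 and 3091, 2969.6 and 3045 at P21. It differed from *Ntrk2* in the first step, where the log2 change of 0.98 ± 0.27 (SE, adjusted p = 0.00368) did not reach 2-fold, and most of the rise, 2.99 ± 0.30 (SE, adjusted p = 1.57e-07), fell between E13.5 and P4. From E10.5 to P21 *Ntrk3* rose 22.4-fold. With length offsets that log2 change was 3.66 in place of 4.49. It stood at 2988, 2952 and 2923 at P56 and at 2552 and 2646 at 2 years.

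For the GDNF family, *Ret* (chr6:118151745-118197718, minus strand) stood at 659, 399 and 1388 normalised counts at E10.5, 435 and 220.1 at E13.5 and 1699.6, 1601 and 1766 at P4. It then lay at 717 and 794 at P13 and 860.2, 658 and 612 at P21. The 3 P4 libraries were above every other in vivo library. The log2 change was a fall of 1.49 ± 0.38 (SE, adjusted p = 0.00185) to E13.5 and a rise of 2.53 ± 0.39 (SE, adjusted p = 2.17e-05) to P4. The fall rests on E10.5 replicate 3 and E13.5 replicate 2: the log2 change was -0.68 without the first and -1.08 without the second, and neither passed the threshold. From E10.5 to P21 the log2 change of -0.21 ± 0.32 (SE, adjusted p = 0.545) was within its error.

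*Gfra1* (GFRα1, chr19:58235604-58455909, minus strand, its exons overlapping the annotated gene *Gm16277*) rose and fell with *Ret*. It stood at 341, 216 and 410.4 normalised counts at E10.5, 327 and 149.7 at E13.5, 940.1, 804 and 1094 at P4 and 511, 584 and 511 at P21. The step to P4 was 2.16 ± 0.29 (SE, adjusted p = 4.99e-06) on the log2 scale, or 1.47 with length offsets, and was called in both. Over the 18 in vivo libraries, which share their depth between genes, the log values of *Ret* and *Gfra1* had a Pearson correlation of 0.901. *Gfra2* (GFRα2, chr14:70890120-70979838, plus strand) was far lower, at 6.11, 4.84 and 17.5 at E10.5, 53.6 and 21.9 at E13.5, 122, 133 and 98.6 at P4 and 22.4, 30.9 and 27.6 at P21. It rose by 1.77 ± 0.45 (SE, adjusted p = 0.00186) on the log2 scale to E13.5 and by 1.85 ± 0.40 (SE, adjusted p = 0.000562) to P4. Its first rise lost the call without E10.5 replicate 1 (1.55), E10.5 replicate 2 (1.43) or E13.5 replicate 1 (1.05), and its second without E13.5 replicate 2 (1.3) or P4 replicate 2 (1.75), with length offsets (1.49) or in the compared groups alone (1.79). From E10.5 to P4 directly, a comparison chosen after seeing the data, *Gfra1* rose by 1.55 ± 0.25 (SE, adjusted p = 1.42e-05) and *Gfra2* by 3.63 ± 0.40 (SE, adjusted p = 1.82e-07), and the change of *Ret*, 1.04 ± 0.32 (SE, adjusted p = 0.00605), missed the threshold.

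In the CNTF receptor complex *Cntfr* and *Lifr* moved in opposite directions from E10.5, the whole-cell age. Among nuclei both were higher at P21 than at E13.5, by 1.39 ± 0.24 (SE, called) and 0.50 ± 0.13 (SE, not called) on the log2 scale. *Cntfr* (chr4:41657498-41697089, minus strand) was at 559.7, 462 and 547 normalised counts at E10.5, 89.6 and 65.6 at E13.5, 147, 151 and 151 at P4, 93.7 and 103 at P13 and 252, 165 and 127 at P21. It fell by 2.92 ± 0.25 (SE, adjusted p = 1.62e-08) on the log2 scale to E13.5, then rose by 1.11 ± 0.24 (SE, adjusted p = 0.000533) to P4. The rise stayed under 2-fold without E13.5 replicate 2 (0.90), with length offsets (0.98) and with no filter on low counts (0.89), and it missed the threshold in the compared groups alone (1.05). Every later library stayed below the 3 at E10.5.

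*Lifr* (chr15:7090614-7197489, plus strand) was called once between neighbouring ages, rising from 267, 252 and 213 normalised counts at E10.5 to 829 and 731 at E13.5, a log2 change of 1.52 ± 0.13 (SE, adjusted p = 1.26e-08). It stayed between 641 and 1140 at all later ages. The E13.5 rise coincided with the endothelial and erythroid marker sums given above and with fibroblast and pericyte markers at 3851 to 5298, against 82 to 144 at E10.5, all 7 of them above 0 at E13.5. At P21, when the endothelial sum was 35 to 79 and the fibroblast and pericyte sum 83 to 408, *Lifr* was 4.07-fold above E10.5 (adjusted p = 3.12e-11), a comparison of nuclei with whole cells. The part of these cell types in the *Lifr* levels was not tested. *Il6st*, the subunit shared with other cytokine receptors, averaged 431 ± 43.3 normalised counts (SD, n = 3) at E10.5 and 357 ± 48.1 (SD, n = 3) at P21.

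*Met* (chr6:17463800-17573980, plus strand) was low in vivo. It stood at 51.9, 23.5 and 58 normalised counts at E10.5, 86.8 and 43.8 at E13.5, 39.3, 42.6 and 33.7 at P4, 12.9 and 13.9 at P13 and 14, 30.9 and 24.9 at P21. The highest in vivo value was in E13.5 replicate 1. From P4 to P13 the values did not overlap, and the log2 change of -1.43 ± 0.45 (SE, adjusted p = 0.0214) was not called.

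A gene was called if edgeR gave it an unadjusted p below 0.001 and its level differed by 2-fold or more, the limits used in the original work. From E10.5 to E13.5, 3 receptors were higher and 3 lower, against 24.6% and 19.4% of the 15030 genes tested in vivo. Fitted on the E10.5 and E13.5 libraries alone, 2 of these 6 were called, *Cntfr* and *Lifr*. The log2 changes of *Ngfr* (-2.47), *Ntrk2* (2.47) and *Ret* (-1.38) were of similar size and missed the threshold. *Gfra2* did not pass the filter on low counts in these groups and was not tested there. From E13.5 to P4, 6 were higher and 1 lower, against 23.8% and 19.0%, and the median log2 change of the receptors was 1.85 beside 0.12 for all genes. From P4 to P13 only *Ngfr* was called, lower, against 5.8% of genes higher and 7.54% lower, though the median of the receptors was -1.0 beside 0.05. From E10.5 to P21, 3 were higher and 2 lower, against 34.7% and 30.6%. From E13.5 to P21, 4 were higher and 1 lower, against 29.8% and 26.3%. *Gfra1* and *Cntfr* lost their calls in that comparison without E13.5 replicate 2, at 0.88 and 1.18, and in the compared groups alone, at 1.18 and 1.23. *Gfra1* also lost it with length offsets, at 0.71. From E10.5 to P4, 5 were higher and 2 lower, against 34.4% and 27.9%, with no E13.5 library in the comparison. P4 still carried 5654 to 7726 summed endothelial counts.

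After P13 no receptor was called. From P13 to P21 the background was 1.5% higher and 5.8% lower, from P21 to P56 0.0466% and 0.126%, and from P56 to 2 years 0.499% and 0.186%. DESeq2 also called 0 of the 9 in each of these steps, and edgeR gave an unadjusted p under 0.05 to 2, 1 and 1 of them. They were *Cntfr* and *Ngfr* from P13 to P21, *Lifr* from P21 to P56 and *Lifr* again from P56 to 2 years, where its log2 change was 0.41 ± 0.13 (SE, adjusted p = 0.17). *Lifr* stood at 829, 829 and 843 normalised counts at P56 and at 1140.1 and 979.6 at 2 years, with no overlap between the groups.

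Oligodendrocyte markers summed to 11457 to 11519 at P13, 6333 to 8568 at P21 and 1597 to 1698 at 2 years. Astrocyte markers summed to 2160 to 2711 at E10.5, 1194 to 1339 at E13.5, 3250 to 4080 at P4 and 2582 to 3242 at P13. They summed to 1548 to 2072 at P21 and 1188 to 1875 at P56, and so were highest at P4, as were *Ret*, *Gfra1* and *Gfra2*. Over the ages from P13, *Ntrk2* was 1637 and 1614 at P13, 1865 to 2015 at P21, 1733 to 1899 at P56 and 1636 and 1542 at 2 years. The part of both cell types in the levels of *Ntrk2* and the other receptors was not tested.

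**Figure D2:**
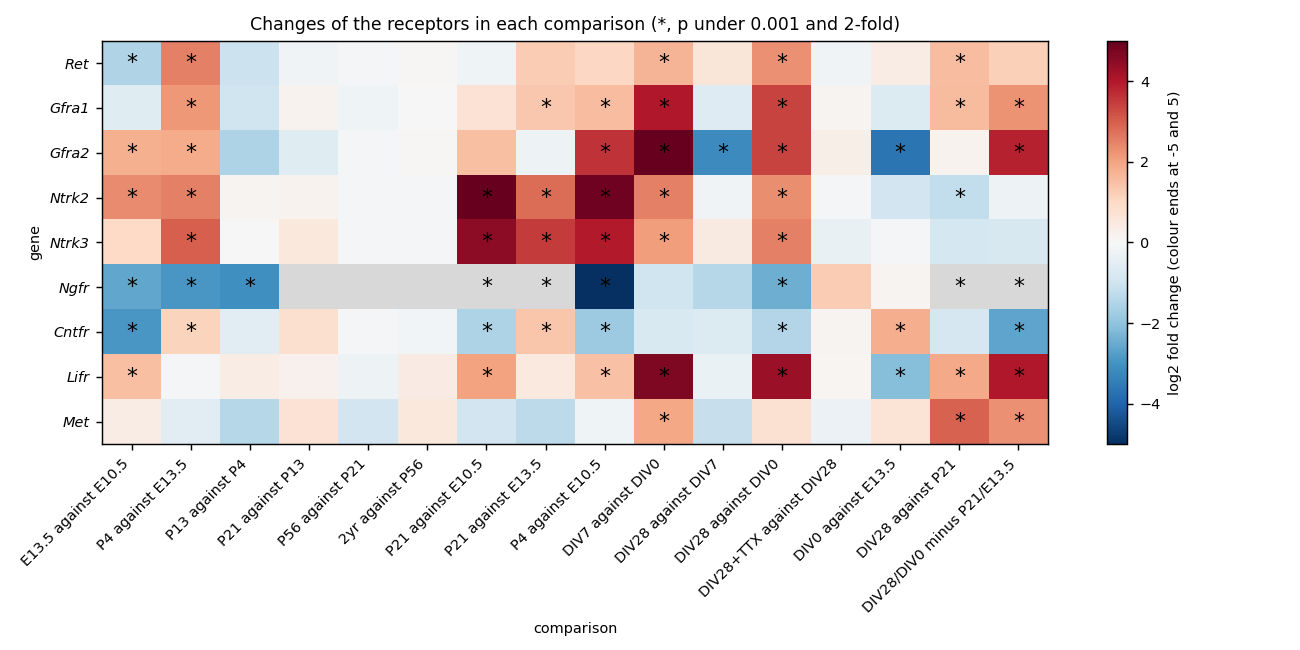
Log2 fold change of each receptor (rows) in each comparison (columns), red higher and blue lower in the first-named group, with the colour scale ending at -5 and 5; stars mark calls, and grey marks *Ngfr* where P21 or P56, with 3 counts or fewer, is compared. Calls gather in the steps to E13.5, P4, DIV7 and DIV28. None stands from P13 to 2 years, or under TTX in this fit, which has no block for replicate number.

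Per unit length, levels can be compared between genes within a library, here in TPM, the length-scaled share of transcripts in a library (mean ± SD). At E10.5 *Ngfr* led at 159 ± 68.6 TPM (n = 3), followed by *Cntfr* at 71.1 ± 14.2, *Ret* at 37.3 ± 16.4 and *Gfra1* at 23.4 ± 5.98. *Ntrk2* stood at 3.25 ± 1.60 and *Ntrk3* at 6.78 ± 1.00. *Ngfr* exceeded *Cntfr* within each of the 3 libraries, and *Ret* exceeded *Gfra1* within each although their ranges overlapped. At P21 the order was *Ntrk2* (53.9 ± 7.61), *Ntrk3* (39.3 ± 7.64), *Gfra1* (20.4 ± 3.66), *Ret* (15.4 ± 4.85), *Lifr* (14.5 ± 1.81) and *Cntfr* (13.7 ± 7.38), with *Gfra2* (1.21 ± 0.0702) and *Met* (0.56 ± 0.243) far below. *Ntrk2* exceeded *Ntrk3* in each P21 library although their ranges overlapped, and *Gfra1* likewise exceeded *Ret*, *Lifr* and *Cntfr* in each. *Ret*, *Lifr* and *Cntfr* overlapped, and *Ret* exceeded *Lifr* in 2 of the 3 libraries.

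Of 15030 genes, those most like a receptor in vivo were taken as the 2 with the highest Pearson correlation of log values over the 18 libraries. For *Ngfr* they were *Rps4x* (0.989) and *Ier2* (0.988), for *Ntrk2* the highest was *Sgip1* (0.998), and for *Ntrk3* they were *Unc79* (0.996) and *Syngr1* (0.995). For *Ret* they were *Camk1g* (0.919) and *Ephb1* (0.903), for *Gfra1* *Elavl2* (0.933) and *Lingo3* (0.927), and for *Gfra2* *Gpm6a* (0.95) and *Cadps2* (0.947). For *Cntfr* they were *Plxna1* (0.969) and *Celsr2* (0.966), for *Lifr* *Gm16386* (0.983) and *Gclm* (0.979), and for *Met* *Tes* (0.868) and *Adam12* (0.866). The libraries share depth and age, so these values describe shape alone.

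Other genes of the pathways moved in both directions in vivo. Of 15 ligand genes only 2 passed the filter. *Hgf*, the MET ligand, was at 0 in both E13.5 libraries and at 31.6 ± 14.7 normalised counts (SD, n = 3) at P4. Of 16 other receptors and coreceptors tested, 3 were higher and 9 lower at P21 than at E10.5, beside 34.7% and 30.6% of all genes, with a median log2 change of -1.11 beside 0.12 for all genes. The sorting receptor gene *Sorcs3* rose from 9.64 ± 1.22 to 484 ± 9.28 normalised counts (SD, n = 3), and *Islr2*, a Trk and RET coreceptor, fell from 822 ± 692 to 7.46 ± 4.3. Of 32 adaptors and kinases 6 were higher and 8 lower, smaller shares than those over all genes. The RET-binding adaptor gene *Dok6* was 17.8-fold higher and the adaptor gene *Grb2* 8.99-fold lower. Of 16 feedback and target genes 1 was higher and 7 lower, with a median of -1.16. *Spry4*, a feedback inhibitor, was 7.99-fold higher and *Dusp4*, a MAP kinase phosphatase gene, 66.3-fold lower.

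In culture most receptors rose between DIV0 and DIV7. *Lifr*, *Gfra1* and *Gfra2* rose the most, *Ret*, *Ntrk2*, *Ntrk3* and *Met* also rose, and *Ngfr* and *Cntfr* were lower by DIV28. From DIV0 to DIV7, 7 of the 9 were higher and 0 lower, against 8.36% of 12890 genes higher and 2.81% lower, with a median log2 change of 2.08 beside 0.03 for all genes. From DIV0 to DIV28, 6 were higher and 2 lower, against 11.5% and 7.45%. From DIV7 to DIV28 0 were higher and 1 lower, against 3.62% and 4.09%; edgeR gave 4 of them an unadjusted p under 0.05, and DESeq2 called 1.

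*Lifr* was at 201 and 164 normalised counts at DIV0, 4227 and 5017 at DIV7 and 3431, 4083 and 3205 at DIV28. The rise to DIV7 was 25.4-fold, with a log2 change of 4.67 ± 0.31 (SE, adjusted p = 3.55e-06). *Gfra1* was at 144 and 158 at DIV0, 2061 and 2757 at DIV7 and 1424, 1701 and 1449 at DIV28, a rise of 16.1-fold to DIV7 (4.01 ± 0.31 (SE, adjusted p = 9.29e-06) on the log2 scale). *Ret*, its signalling partner, was at 474 and 369, 1065 and 1621 and 2350.1, 1916 and 1799 at the same times and rose by 2.29 ± 0.32 (SE, adjusted p = 0.000208) on the log2 scale to DIV28. For each of these genes the DIV7 and DIV28 values lay above the DIV0 values. The share of all genes separated in this way was not computed.

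*Gfra2* rose and fell again. The DIV0 libraries held 4 counts of it and the DIV7 libraries 370, a ratio of 99.7 per unit depth (95% interval from counting error 38.6 to 368). Its normalised counts were 1.31 and 4.59 at DIV0, 221 and 321 at DIV7 and 24.3, 19.1 and 46.7 at DIV28. The fall from DIV7 to DIV28, 3.17 ± 0.49 (SE, adjusted p = 0.00211) on the log2 scale, was the only call of that step, and without DIV7 replicate 2 the change of -2.85 missed the threshold. The rise from DIV0 to DIV28, 3.37 ± 0.77 (SE, adjusted p = 0.00477), was lost without DIV0 replicate 1 (2.71), DIV0 replicate 2 (4.43), DIV28 replicate 1 (3.47) or DIV28 replicate 3 (2.89), or with length offsets (3.17).

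*Ntrk2* was at 159 and 158 normalised counts at DIV0, 698 and 1084 at DIV7 and 641, 916 and 804 at DIV28. *Ntrk3* was at 293 and 275, 1200.3 and 1190.2 and 1356, 1572 and 1837. The log2 rises from DIV0 to DIV28 were 2.34 ± 0.28 (SE, adjusted p = 7.87e-05) and 2.51 ± 0.25 (SE, adjusted p = 2.43e-05). The effective length of *Ntrk2*, which the quantification weights by isoform, went from 2691 and 2889 bases at DIV0 to 6148, 6913 and 5061 bases at DIV28. With offsets for these lengths its log2 change was 1.24 and no longer passed the threshold, while that of *Ntrk3* was 1.68 and did.

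*Met* was at 127 and 79.5 normalised counts at DIV0, 369 and 421 at DIV7 and 181, 145 and 198 at DIV28. The rise to DIV7 was 1.94 ± 0.38 (SE, adjusted p = 0.0035) on the log2 scale. It missed the threshold without DIV0 replicate 2 (1.65), DIV7 replicate 1 (1.98) or DIV7 replicate 2 (1.79), and the rise of *Ret* to DIV7 (1.68 ± 0.33 (SE, adjusted p = 0.00358)) did so without DIV0 replicate 1 (1.89), DIV0 replicate 2 (1.51) or DIV7 replicate 2 (1.29). From DIV0 to DIV28 the change of *Met* was 0.78 ± 0.35 (SE, adjusted p = 0.0952) and not called.

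*Ngfr* and *Cntfr* declined. *Ngfr* was at 421 and 563 normalised counts at DIV0, 169 and 320.2 at DIV7 and 73, 131 and 59.1 at DIV28, a fall of 2.44 ± 0.44 (SE, adjusted p = 0.00108) on the log2 scale over the 28 days that missed the threshold without DIV0 replicate 2 (-2.22). *Cntfr* was at 265 and 286, 152 and 169.7 and 115, 92.4 and 89, a fall of 1.46 ± 0.31 (SE, adjusted p = 0.00347). With any 1 of the 5 libraries left out the change of *Cntfr* lay between -1.59 and -1.39 and missed the threshold, as it did with length offsets (-1.31). Neither gene was called by DIV7. Schwann cell markers summed to 38 to 42 normalised counts at DIV0, 31 to 53 at DIV7 and 5 to 8 at DIV28, and their part in the *Ngfr* fall was not tested.

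Fibroblast and pericyte markers were at 1 to 8 summed normalised counts at DIV0, with 4 of the 7 at 0 in both libraries, and at 2414 and 163 in DIV7 replicates 1 and 2. *Lifr*, *Gfra1*, *Gfra2*, *Ret*, *Ntrk2*, *Ngfr*, *Cntfr* and *Met* were higher in DIV7 replicate 2, the library with the lower sum. In DIV28 replicate 3 the sum was 4, and *Lifr* was 3205 and *Gfra1* 1449 in it. Astrocyte markers, which could enter from the feeder layer, summed to 958 to 1086 at DIV0 and 758 to 1070 at DIV28. At DIV7 they summed to 1039 and 1865 in replicates 1 and 2, so that they, like these receptors, were higher in replicate 2. The part of fibroblasts, pericytes and astrocytes in the receptor levels was not tested.

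Of 15 feedback and target genes of the receptors tested at DIV7 against DIV0, 6 were higher and 0 lower beside the 8.36% and 2.81% of all genes given above, and the other 9 were not called, with a median log2 change of 2.66 beside 0.03. Of 16 other receptors and coreceptors 4 were higher and 1 lower, and of 31 adaptors and kinases 6 were higher and 0 lower. *Socs3*, an inhibitor of cytokine receptor signalling, averaged 15.8 at DIV0 and 509 at DIV7. *Islr2* averaged 708 at DIV0, 4.46 at DIV7 and 0.85 at DIV28. *Bdnf*, the ligand of TrkB, was at 0.66 at DIV0 and 46.5 at DIV7. *Osmr*, a cytokine receptor that pairs with gp130, was at 0 in both DIV0 libraries and averaged 185 at DIV7.

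In fits without the replicate number as a block, silencing with TTX changed no receptor at the study's limits. There 0 of the 9 were called by edgeR or by DESeq2, and the background was 0.279% of genes higher and 0.403% lower. In the edgeR fit 1 receptor had an unadjusted p under 0.05. That receptor was *Ngfr*, which was at 73, 131 and 59.1 normalised counts in the DIV28 cultures and at 300.2, 222 and 117 with TTX. It was higher in 3 of 3 pairs of cultures with the same number, and the groups overlapped only between the highest DIV28 value and the lowest TTX value. The log2 change was 1.25 ± 0.40 (SE, edgeR unadjusted p = 0.00896, adjusted p = 0.352). With the replicate number as a block, which fits the parallel cultures, it was 1.26 ± 0.27 (SE, edgeR unadjusted p = 0.000715, adjusted p = 0.0513) and met the study's limits but not an adjusted p of 0.05. Over all genes, the fit with the block called 81 higher and 91 lower, against 36 and 52 without it. Without the block, and with each library left out in turn, the change of *Ngfr* lay between 0.94 and 1.68 and was not called. Such fits leave 1 culture without its pair, and none was run with the block.

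Fibroblast and pericyte markers also went up with TTX in the numbered pairs, from 428 to 1406, from 314 to 1501 and from 4 to 8 summed normalised counts, and their part in the *Ngfr* difference was not tested. In pair 3, where the sum was 8 or less in both cultures, *Ngfr* went from 59.1 to 117.

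The other 8 receptors had unadjusted p-values above 0.05 without the block. *Lifr* was at 3745, 4305 and 3710.3 with TTX, a log2 change of 0.11 ± 0.21 (SE). *Ntrk3* was at 1152, 1115 and 1479, lower in 3 of 3 pairs by 0.37 ± 0.20 (SE, adjusted p = 0.759), or by 0.37 ± 0.16 with the replicate block (SE, edgeR unadjusted p = 0.0378, adjusted p = 0.328). *Ntrk2* was at 666, 809 and 804. The median log2 change was 0.22 for the 15 feedback and target genes tested, beside 0.01 for all genes.

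**Figure D3:**
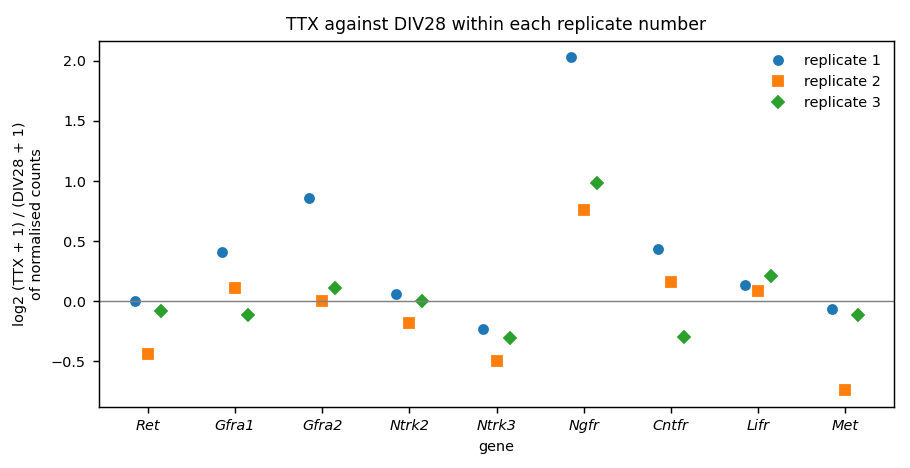
Log2 ratio of normalised counts plus 1, TTX over DIV28, for each receptor within each pair of same-numbered cultures (circles, squares and diamonds for replicates 1, 2 and 3). *Ngfr* lies between 0.76 and 2.03 in the 3 pairs and the pairs of the other receptors lie between -0.74 and 0.86.

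At the start of culture, DIV0 nuclei were set against E13.5 nuclei. *Cntfr* was higher and *Gfra2* and *Lifr* were lower, that is 1 higher and 2 lower, against 15.1% and 24.3% of 15521 genes. The difference was 1.82 ± 0.25 for *Cntfr*, -3.65 ± 0.73 for *Gfra2* and -2.12 ± 0.19 for *Lifr* (log2 ± SE). *Ngfr*, *Ret* and *Ntrk3* lay within 1 SE of no difference. The difference of *Gfra2* was lost without E13.5 replicate 1 (-2.83) or DIV0 replicate 1 (-3.05). The E13.5 libraries carried the vessel and blood markers given above, which were at 9 to 14 and 2 to 7 at DIV0, and their part in the *Lifr* and *Gfra2* differences was not tested.

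After maturation, DIV28 cultures were set against P21 tissue. *Ret*, *Gfra1*, *Lifr*, *Met* and *Ngfr* were higher in culture and *Ntrk2* was lower, 5 higher and 1 lower against 13.3% and 13.1% of genes. The log2 difference was 2.95 ± 0.34 (SE, adjusted p = 3.88e-07) for *Met*, whose DIV28 values of 181, 145 and 198 lay above the P21 values of 14, 30.9 and 24.9. It was 1.90 ± 0.15 (SE, adjusted p = 1.14e-09) for *Lifr*, 1.57 ± 0.23 (SE, adjusted p = 9.34e-06) for *Gfra1* and 1.56 ± 0.31 (SE, adjusted p = 0.000211) for *Ret*. *Ngfr* had 549 counts in the DIV28 libraries and 1 in the P21 libraries, a ratio of 221 per unit depth (95% interval from counting error 39.6 to 8760).

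*Ntrk2* was lower in culture by 1.23 ± 0.26 (SE, adjusted p = 0.00038) on the log2 scale, or by 1.94 with length offsets. The differences of *Ntrk3* (-0.88 ± 0.22, adjusted p = 0.00186) and *Cntfr* (-0.83 ± 0.20, adjusted p = 0.00163) stayed under 2-fold. Per unit length, *Gfra1* (29.8 ± 6.68 TPM), *Lifr* (27.9 ± 8.64) and *Ret* (23.3 ± 7.04) led at DIV28 with overlapping ranges, and *Gfra1* exceeded *Ret* within each of the 3 libraries. *Ntrk3* and *Ntrk2* stood at 7.73 ± 1.18 and 7.1 ± 1.08 in the same libraries. *Ntrk2* had effective lengths of 3623 to 3739 bases at P21 and 5061 to 6913 bases at DIV28.

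Of 16 feedback and target genes tested, 6 were higher and 1 lower at DIV28 than at P21, beside 13.3% and 13.1% of all genes, with a median log2 difference of 0.86 beside 0.03. *Socs3* was 81.2-fold higher in culture. *Etv1*, a transcription factor gene induced by neurotrophic signals in some sensory neurons, was lower, at 3.07 against 39.1 normalised counts.

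The change from DIV0 to DIV28 was also set against the change from E13.5 to P21, both arms from nuclei, with a test of the difference. Of the 9 receptors 5 were higher and 1 lower in this difference, against 24.2% and 17.5% of 15521 genes. *Lifr* showed the clearest contrast, a log2 difference of 4.02 ± 0.24 (SE, adjusted p = 3.02e-11): it rose in culture and changed by 0.50 ± 0.13 in tissue. The difference was also positive for *Gfra2* (3.84 ± 0.86 (SE, adjusted p = 0.000555)), *Met* (2.28 ± 0.51 (SE, adjusted p = 0.000537)) and *Gfra1* (2.24 ± 0.38 (SE, adjusted p = 2.74e-05), or 3.08 with length offsets). *Gfra1* rose in both arms, *Gfra2* rose in culture and changed by -0.27 ± 0.43 in tissue, and *Met* changed by 0.78 ± 0.35 in culture and -1.31 ± 0.42 in tissue, neither of them called. *Ngfr* fell in both arms and further in tissue (adjusted p = 8.85e-06). *Cntfr* went the other way, falling in culture and rising in tissue, a difference of -2.65 ± 0.32 (SE, adjusted p = 3.86e-07). For *Ntrk2* (-0.27 ± 0.42) and *Ntrk3* (-0.79 ± 0.35) no difference between the arms was called, but this depends on transcript length. With length offsets *Ntrk2* rose by 1.24 from DIV0 to DIV28 and by 3.13 from E13.5 to P21. For *Ntrk3* the log2 rises with length offsets were 1.68 and 3.52. Likeness of the arms is therefore not concluded for these genes. These differences hold the gap at the start as well as that at the end. DIV0 against E13.5 was -2.12 for *Lifr*, -3.65 for *Gfra2*, 0.67 for *Met*, -0.67 for *Gfra1* and 1.82 for *Cntfr*. DIV28 against P21 was 1.90, 0.19, 2.95, 1.57 and -0.83 for the same genes.

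*Met* missed the threshold without E13.5 replicate 1 (1.67) or DIV0 replicate 2 (2.07), and *Gfra2* without E13.5 replicate 1 (3.05) or DIV0 replicate 1 (3.25). Of the 16 feedback and target genes 8 were higher and 0 lower in the same difference, beside 24.2% and 17.5% of all genes, with a median of 2.00 beside 0.16. *Dusp6*, a phosphatase gene of the MAP kinase pathway, led them, with 15.4 normalised counts at DIV0, 458 at DIV28, 331 at E13.5 and 15.4 at P21.

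ATAC-seq gave a second view of the 9 genes. In tissue from E13.5 on it included thoracic cord, which the RNA did not, so peaks and RNA are not from the same cord levels. Each library's 80000 peaks with the highest peak scores were used, since the libraries held between 80386 and 224328 peaks. A peak lay within 1000 bp of an annotated start site in 197 of the 198 combinations of receptor and library, against 61.7% to 67.9% of 21951 protein-coding genes. The exception was *Cntfr* in DIV28 replicate 1. These shares are not from like genes. The background includes 7473 genes with at most 3 counts over the P21 libraries. The receptors passed the filter on low counts and have up to 19 annotated start sites (*Ntrk3*), each with its own window. Genes of like level and like number of start sites were not compared, so no conclusion is drawn from the difference. 

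*Ngfr* kept its promoter peak when its RNA was nearly absent. The peak had a fold enrichment over background of 3.03 and 6.09 at E10.5, when the RNA was highest, and of 9.61 and 10.7 at P21, when the RNA libraries held 1 count in total. The P21 peaks ranked 13380 and 11735 in their libraries and the E10.5 peaks 26265 and 18660. As shares of all peaks these ranks were 8.2% and 6.18% against 32.7% and 19.2%. The shares differ more than the ranks because the P21 libraries held 163235 and 189868 peaks and the E10.5 libraries 80386 and 97002. At P56 the fold enrichment was 10.7 in both libraries. Of the 7473 protein-coding genes with at most 3 counts over the P21 libraries, 13% had a promoter peak in both P21 libraries. Of the 28 of these with at least 500 normalised counts in each E10.5 library, *Ngfr* among them, 75.0% did.

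The peak of the *Ngfr* internal region printed above was present from E10.5 to P13 and at DIV0. It had a fold enrichment of 3.32 and 6.93 at E10.5, 13 and 5.63 at E13.5, 5.05 and 3.31 at P4, 3.41 and 3.63 at P13 and 8.51 and 5.86 at DIV0. It was not among the 80000 highest peaks of any library at P21, P56, 2 years, DIV7, DIV28 or TTX. The DIV7 cultures, without it, held more *Ngfr* RNA (169 and 320.2 normalised counts) than P13 (5.66 and 6.5). Among all peaks it remained in 1 library each at P21 (2.92), DIV7 (3.54), DIV28 (1.64) and TTX (2.32). Peaks in the *Ngfr* locus, the gene and 50 kb on each side, numbered 12 and 10 at E10.5, 6 and 5 at P21, 15 and 14 at DIV0 and 10 and 7 at DIV28, beside a median of 5 to 6 over genes of like length.

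**Figure D4:**
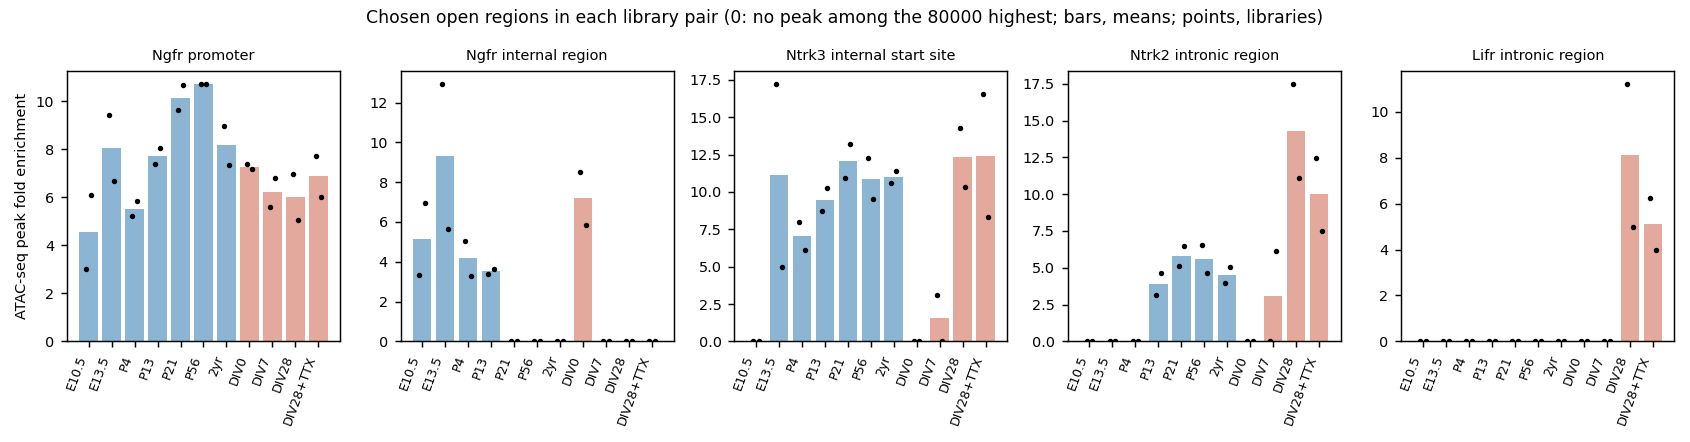
ATAC-seq peak fold enrichment (linear axis) at the *Ngfr* promoter and at the 4 chosen internal regions in each group; bars are means, points are the 2 libraries, and 0 means no peak among the 80000 highest. The *Ngfr* promoter keeps a peak in every library, the *Ngfr* internal region is lost after P13 and after DIV0, and the *Lifr* region has a peak only at DIV28 and with TTX.

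The loci of both neurotrophin kinases held more peaks at P21 than at E10.5. The *Ntrk2* locus held 12 and 16 peaks at E10.5, 19 and 19 at E13.5, 30 and 25 at P21, 15 and 18 at DIV0 and 16 and 16 at DIV28, with a median of 13 to 17 over genes of like length. The count thus differed little between DIV0 and DIV28, over which *Ntrk2* RNA rose. Of its 70 regions, 18 had a peak in both P21 libraries and in neither E10.5 library, and 1 the reverse. The printed *Ntrk2* intronic region had no peak at E10.5 or DIV0 and fold enrichments of 3.18 and 4.68 at P13, 5.14 and 6.49 at P21 and 17.5 and 11.1 at DIV28. In the P4 libraries, whose *Ntrk2* RNA was already at its later level, it appeared only below the 80000 highest peaks, at 2.34 and 2.06.

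The *Ntrk3* locus held 17 and 16 peaks at E10.5, 35 and 38 at E13.5, 45 and 42 at P21, 24 and 20 at DIV0 and 29 and 22 at DIV28, with a like-length median of 16 to 24. The increase in vivo was thus already present at E13.5, before the main rise of the RNA between E13.5 and P4. Of its 128 regions 26 had a peak in both P21 libraries and in neither E10.5 library, and 2 the reverse. The printed region at an internal start site had no peak at E10.5 or DIV0. It reached 17.3 and 4.95 at E13.5, 10.9 and 13.2 at P21 and 14.3 and 10.4 at DIV28, and at DIV7 it was present in 1 library, at 3.14.

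*Gfra1* held 7 and 16 peaks at E10.5, 27 and 27 at E13.5, 23 and 20 at P21 and 26 and 22 at DIV0, when its mean RNA level was at its lowest. *Ret* changed little, with 8 and 8 peaks at E10.5, 12 and 11 at P4, when its RNA was highest in vivo, and 7 and 7 at P21. *Gfra2* went from 2 and 5 peaks at E10.5 to 10 and 11 at E13.5 and stood at 6 and 2 at DIV28. *Cntfr* kept 22 and 23 peaks at E10.5, 20 and 20 at P21, 27 and 22 at DIV0 and 14 and 13 at DIV28, beside a like-length median of 5 to 7.

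The *Lifr* and *Met* loci held fewer peaks at P21 than at E10.5. The *Lifr* locus held 8 and 11 peaks at E10.5, 5 and 4 at P21, 10 and 11 at DIV0, 13 and 14 at DIV7 and 12 and 12 at DIV28, beside like-length medians of 7 to 9. The fewer peaks at P21 stood beside higher *Lifr* RNA than at E10.5. The printed *Lifr* region had a peak only at DIV28 (11.2 and 4.97) and with TTX (6.26 and 3.98) and in no other library even among all peaks. It was absent at DIV7, when the mean *Lifr* RNA level was at its highest. The *Met* locus held 11 and 13 peaks at E10.5, 6 and 6 at P21, 14 and 15 at DIV0 and 13 and 9 at DIV28. Between DIV0 and DIV28 many regions were exchanged: in *Lifr* 5 had a peak in both DIV0 libraries and neither DIV28 library, 6 the reverse and 3 in all 4 libraries, and in *Met* the numbers were 9, 4 and 2.

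**Figure D5:**
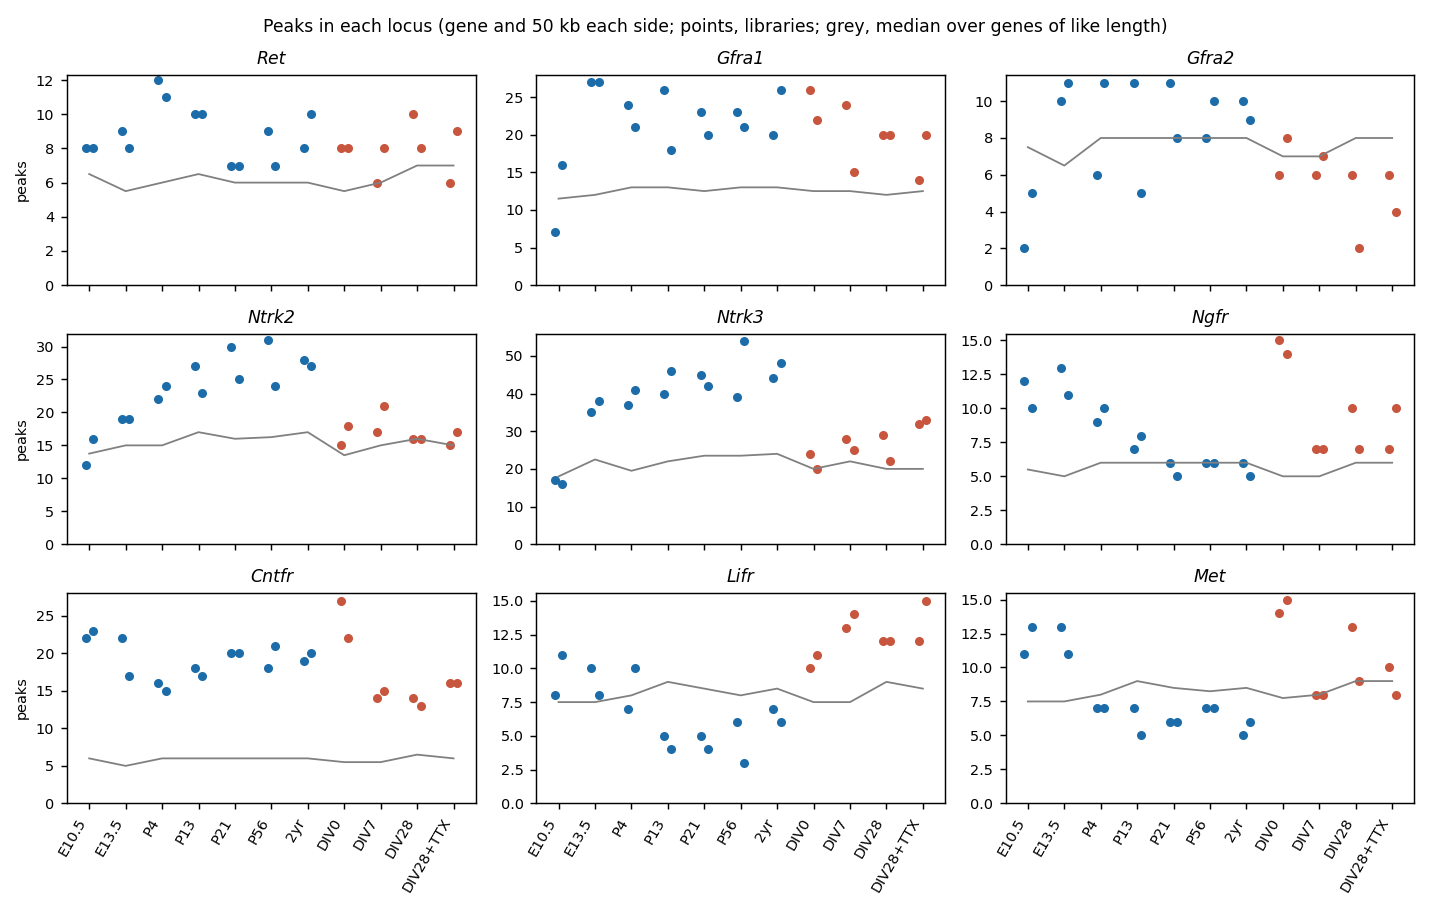
Number of peaks in the locus of each receptor (gene and 50 kb on each side) among the 80000 highest of each ATAC-seq library; points are libraries, blue in vivo and red in vitro, and the grey line is the mean over the 2 libraries of the median over genes of like length. *Ntrk2* and *Ntrk3* rise above the grey line in tissue, and *Cntfr* stays above it throughout. In tissue *Met* lies below it from P4 on and *Lifr* after P4.

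TTX left the promoter peaks in place. *Ngfr* promoter fold enrichment was 6.98 and 5.06 at DIV28 and 7.71 and 6.01 with TTX. With 2 ATAC-seq libraries per group and no read counts in the peak files, these values were compared without a test.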

How the data were processed

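Libraries were made with a stranded total RNA kit for low input (RNA-seq) or by tagmentation (ATAC-seq), with 50 samples in all. Per the submitters' processing notes, the tools were Trim Galore, cutadapt 0.6.2, STAR 2.5.2b, RSEM 1.3.0, BWA 0.7.1.7, SAMtools 1.7.2 and MACS2 2.2.7.1, with the mm10 build. The authors deposited RSEM expected counts per gene, which are estimates that share multi-mapping reads between genes. The authors deposited TPM values in the same files, scaled within each library by effective length. The deposited peak files of each ATAC-seq library give the fold enrichment, a ratio of pileup to local background, and −log10 p-values from MACS2.

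Expected counts were rounded and tested with edgeR 4.0.16 (R 4.3.3, limma 3.58.1) by the quasi-likelihood test with TMM factors, keeping a gene if all replicates of some group reached 5 CPM. The 18 in vivo libraries (15030 genes), the 10 in vitro libraries (12890 genes) and the 25 libraries without TTX (15521 genes) were fitted separately. A call needed an unadjusted p under 0.001 and a 2-fold change; Benjamini-Hochberg adjusted p-values cover all genes tested. Log2 changes are given with standard errors. To give normalised counts, each library's expected counts were scaled by its size factor, from medians of ratios over the 28 RNA-seq libraries. DESeq2 1.42.0 was an alternative. Exact intervals on count ratios cover counting error only. Scripts ran in Python 3.11.15 with numpy 2.4.6, pandas 2.3.3 and scipy 1.17.1, and were tested on simulated data. The annotation was GENCODE, and its release may differ from that of the deposited files.

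The receptors, pathway lists and marker lists were chosen with earlier results of these data known. All 9 receptors are named, and of each pathway list the genes with the largest called rise and fall; *Il6st*, *Islr2*, *Bdnf*, *Osmr* and *Hgf* were chosen after their values were seen. Some results are not reported here. Replicates are separate samples per the labels, and where separate animals or cultures are not stated the p-values measure only the spread between these samples. DIV28 and TTX cultures were grown in parallel, and deviations from the group mean correlated at 0.738, 0.64 and 0.788 between same-numbered libraries and at -0.472 to -0.252 between others, over 9480 genes, so the replicate number was used as a block in an alternative fit. Leaving out the E13.5 libraries and comparing P4 with E10.5 were added after seeing the data.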

Additional observations from a re-analysis of the deposited data

Results flagged for a closer look

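The change from DIV0 to DIV28 was tested against the change from E13.5 to P21, and 6 receptors differed between culture and tissue. The log2 difference was 4.02 for *Lifr*, 3.84 for *Gfra2*, 2.28 for *Met* and 2.24 for *Gfra1*, each a higher change in culture than in tissue. It was -2.65 for *Cntfr*, which fell in culture and rose in tissue. For *Ngfr*, whose P21 libraries held 1 count in all, no fold is given, and the difference had an edgeR unadjusted p = 1.52e-06 (adjusted p = 8.85e-06). The culture medium supplied GDNF, BDNF, CNTF and IGF at DIV28 and not at DIV0, and its part in these differences was not tested. The differences are between changes, not between levels at DIV28 and P21, and hold the gaps between DIV0 and E13.5 given above.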

How the results depend on the processing

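Counts of called receptors are given as alternative against reported value. From E10.5 to E13.5 (6), the fit on the compared groups alone called 2. From P4 to P13 (1), median-of-ratios factors called 2, no filter 5, DESeq2 3, the compared groups alone 5, a fit without the E13.5 libraries 3 and an adjusted p limit of 0.05 called 4. From P13 to P21 (0) no filter called 1. From E13.5 to P21 (5) the compared groups alone called 3. From DIV7 to DIV28 (1) no filter and the adjusted p limit each called 3. From DIV0 to DIV28 (8) length offsets called 5. Under TTX (0) no filter called 1, *Ngfr*, with edgeR adjusted p = 0.00811. With the library titled DIV0 replicate 3 kept as DIV0, 0 receptors were called from DIV0 to DIV7 (7), DIV7 to DIV28 (1) and DIV0 to DIV28 (8), 1 between DIV0 and E13.5 (3), 2 between DIV28 and P21 (6) and 2 in the difference between culture and tissue (6), and the *Lifr* difference between DIV0 and E13.5 turned from -2.12 to 0.56. The cause of these differences was not tested.

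Leaving out each library in turn gave 5 to 6 calls from E10.5 to E13.5, 5 to 7 to P4, 0 to 1 from P4 to P13, 5 to 6 from E10.5 to P21, 3 to 5 from E13.5 to P21 and 7 to 8 from E10.5 to P4. In culture it gave 5 to 6 from DIV0 to DIV7, 0 to 1 to DIV28, 5 to 7 from DIV0 to DIV28 and 0 under TTX. It gave 2 to 4 between DIV0 and E13.5, 6 to 7 between DIV28 and P21 and 5 to 6 for the difference of both changes. With the replicate block, 2 receptors were called from DIV7 to DIV28 (1) and 1 under TTX (0), with 4 from E10.5 to E13.5 (6). Only DIV28 and TTX cultures met the criterion for pairing. Peaks outside promoters, as the median over 22 ATAC-seq libraries summed over the 9 loci, numbered 123.5 among the 80000 highest peaks, 247 among all peaks and 56 among the 40000 highest. The all-gene median from E10.5 to E13.5 was 0.13, and 0.237 with median-of-ratios factors.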
